A study of Homo sapiens with 12 samples.

Results

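The genes for the translation initiation and elongation factors were described in human HEK-293T cells, a line from embryonic kidney, after knockout of ARID1A. Members were all gene names that begin with EIF or EEF followed by a digit and then only letters and digits, with EEF limited to the eEF1 and eEF2 families. The rule found 213 of 60645 gene names, and 144 of these are names of pseudogenes, which were only counted. The other 69 comprise 56 EIF and 13 EEF names. By class they are 48 initiation factors, 8 regulators of initiation, 7 elongation factors and 6 regulators of elongation. The classes follow the gene names and not always the role. EIF5A, EIF5A2, EIF5AL1, EIF4A3 and EIF1AD stand with the initiation factors, and EEF1E1 with the elongation factors. A total of 66 passed the filter on low counts and were tested: 46 initiation factors, 8 regulators of initiation, 6 elongation factors and 6 regulators of elongation. EIF4E1B, an oocyte form of the cap-binding protein, was near the detection floor at 0.07 to 0.71 CPM (counts scaled to an equal library total) and was not tested. EEF1G could not be counted, for a reason given with the elongation factors. EIF1AY, which lies on the Y chromosome, was not tested and is not reported.

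The knockout cells carried one of 3 ARID1A states: an empty vector (here "no ARID1A"), wild-type ARID1A (WT) or ARID1A without the segment called IDR1b (ΔIDR1b). On top of each state came EWS-FLI1, the fusion protein of Ewing sarcoma, from 2 µg of plasmid and with harvest after 48 h, or another empty vector. This made 6 groups of 2 polyA RNA libraries, 12 in all. ARID1A is a subunit of the SWI/SNF (BAF) chromatin remodeller, and the series asked what its disordered segment does in transcription driven by EWS-FLI1. Every group, the controls included, lacks the endogenous ARID1A and holds an introduced plasmid or vector, and there was no parental line with its own ARID1A among the libraries. The labels do not say whether the line is 1 clone, how ARID1A was introduced, or whether the repeats are separate cultures. The p-values below therefore measure the spread between the libraries of a group, which may be technical. In such bulk samples, fewer cells of a kind and less RNA per cell cannot be told apart.

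Initiation brings the small ribosomal subunit, the initiator tRNA carried by eIF2 and the capped mRNA together. The eIF4F complex (the cap-binding eIF4E, the scaffold eIF4G and the helicase eIF4A) recruits the mRNA, and the many-subunit eIF3 bridges it to the ribosome. During elongation eEF1A delivers aminoacyl-tRNA, the eEF1B complex recharges eEF1A with GTP, and eEF2 moves the ribosome along. The mRNAs of elongation factors and of several eIF subunits are known to begin with a C followed by a run of pyrimidines (a 5′ terminal oligopyrimidine, or TOP, tract), through which mTOR signalling controls their translation and stability.

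Each library held 11702251 to 14445379 assigned fragments, so 3 counts, the limit a count of 0 allows, came to 0.209 to 0.259 CPM. ARID1A RNA was at 147 to 165 CPM in the libraries of no ARID1A, 1843 to 2291 CPM in WT and 2608 to 2878 CPM in ΔIDR1b. The counts span the whole gene, so those in the knockout do not check the deletion. Since ΔIDR1b libraries also held more ARID1A RNA than WT libraries, the form of ARID1A and its amount cannot be told apart in any comparison of the 2. FLI1 reads 0 to 2 counts with the empty vector. With EWS-FLI1 it was at 1830 and 1688 CPM in no ARID1A, 3675 and 3462 CPM in WT, and 1888 and 1906 CPM in ΔIDR1b. In EWS-FLI1 cells WT thus also differed from the other states in the amount of fusion RNA. The part of that amount in comparisons with WT was not tested. Of 7 HEK-293T markers 6 exceeded 1 CPM, NEFM being near 0, with a summed level of 850 to 1215 CPM. Markers of other cells stayed low in sum: liver 0.366 to 1.59 CPM (0 of 2 over 1 CPM), endothelium 0 to 0.897 CPM (0 of 3) and kidney tubule or podocyte 0 to 0.637 CPM (0 of 4, UMOD at 0). Fibroblast markers summed to 74.3 to 108 CPM (2 of 3), nearly all COL1A1.

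Per length, the median elongation factor stood far above the median initiation factor, though not every elongation factor did. In TPM, where counts are divided by exonic length and scaled to an equal total, the median member reached 588.2 TPM among elongation factors and 96.64 TPM among initiation factors. Regulators of initiation had a median of 35.15 TPM and regulators of elongation 11.33 TPM. EEF2 led at a mean of 6652 TPM (5950 to 7768 over the libraries), and EEF1A1 came next at 3776 TPM (3237 to 4168). The ranges of this pair do not overlap. They were followed by EIF4EBP1 at 933 TPM, EIF5A at 800 TPM, EIF2S3 at 676 TPM, EEF1B2 at 630 TPM and EEF1A2 at 547 TPM. The remaining tested elongation factors, EEF1D at 64.3 TPM and EEF1E1 at 42.6 TPM, lay below the initiation median. At the bottom of the tested order stood EIF3CL at 2.54 TPM, a near-copy of EIF3C with which fragments can be shared, EIF2S3B at 2.80 TPM, EIF5AL1 at 3.42 TPM and EIF4EBP3 at 5.04 TPM. Exonic length here is the union over all annotated transcripts, 10063 bases for EEF1A1 and 37761 for EIF3E, so levels of such genes are understated. EEF1A1 and EEF2 together made up 87.9 to 89.9% of the elongation-factor TPM of a library.

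The form of ARID1A went with many changes among these genes, and most of them were lower levels with ΔIDR1b. Against WT, ΔIDR1b had 4 members higher and 30 lower of 66 with the empty vector, against 2 higher and 21 lower with EWS-FLI1 (edgeR quasi-likelihood test, Benjamini-Hochberg adjusted p, here q, under 0.05 over all 20377 genes tested). Of all genes tested, 13.4% were lower in the first of these comparisons and 10.1% in the second, against 45.5% and 31.8% of the members. In either direction the background was 24.5% and 18.6%. Of the 20377 genes, 10695 averaged at least 10 CPM. The members were not matched to all genes by level, and the part of level in these shares was not tested. The median log2 fold change of the members was -0.28 and -0.24, beside 0.01 and 0.01 over all genes. Against no ARID1A, ΔIDR1b raised 9 members and lowered 23 in the empty-vector cells, and 11 and 17 in those with EWS-FLI1. The background there was 33.3% called (16.8% lower) and 35.9% (17.9% lower), so the 25.8% of members lower with EWS-FLI1 was nearer to it. The members' medians were -0.20 and -0.04, beside 0.00 and 0.02. WT against no ARID1A went the other way: with the empty vector, 8 members were higher and 1 lower, while EWS-FLI1 cells had 15 higher and 3 lower. Called genes made up 11.7% and 18.1% of all genes there, with 6.5% and 9.72% higher and 5.19% and 8.36% lower. In either direction, the 9 of 66 members called with the empty vector were thus near the background. The members' medians were 0.11 and 0.12. The comparisons of ΔIDR1b with WT and with no ARID1A share the ΔIDR1b libraries, and those of both forms with no ARID1A share the controls, so they are not independent of each other.

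These counts depend on the fit and on single libraries. When only the 4 libraries compared were fitted, the 23 calls of ΔIDR1b against WT with EWS-FLI1 became 5 and the 18 of WT against no ARID1A with EWS-FLI1 became 7. That fit ended 23 of the 146 called values of genes chosen for naming, and is given below only for some of them. Blocking the repeats within each vector ended no call of a member and added some in all 6 comparisons: in WT against no ARID1A there were then 15 calls in empty-vector cells and 22 in EWS-FLI1 cells, in ΔIDR1b against no ARID1A 42 and 33, and in ΔIDR1b against WT 40 and 34. The last were 5 higher and 29 lower members. By single libraries, for WT against no ARID1A with the empty vector, the 9 calls became 2 without WT repeat 1, 3 without either repeat of no ARID1A, and 15 without either WT repeat with EWS-FLI1, which enters only through the shared estimate of the spread. The 15 under the block were 14 higher and 1 lower, and upper-quartile scaling gave 5. For the same pair with EWS-FLI1 the 18 calls became 6 without either repeat of no ARID1A and 11 without WT repeat 1. The 32 calls of ΔIDR1b against no ARID1A with the empty vector became 18 without repeat 1 of no ARID1A, 20 without ΔIDR1b repeat 1 and 21 without ΔIDR1b repeat 2. The 34 calls of ΔIDR1b against WT with the empty vector became 22 without WT repeat 1, and the 23 with EWS-FLI1 became 9 without ΔIDR1b repeat 1. Where a gene's pairs of values name no state, they stand in the order no ARID1A, WT, ΔIDR1b, with repeat 1 before repeat 2. A pair of fold changes gives the empty vector first and EWS-FLI1 second. A repeat named as left out belongs to the vector of the comparison unless another vector is given.

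**Figure D1:**
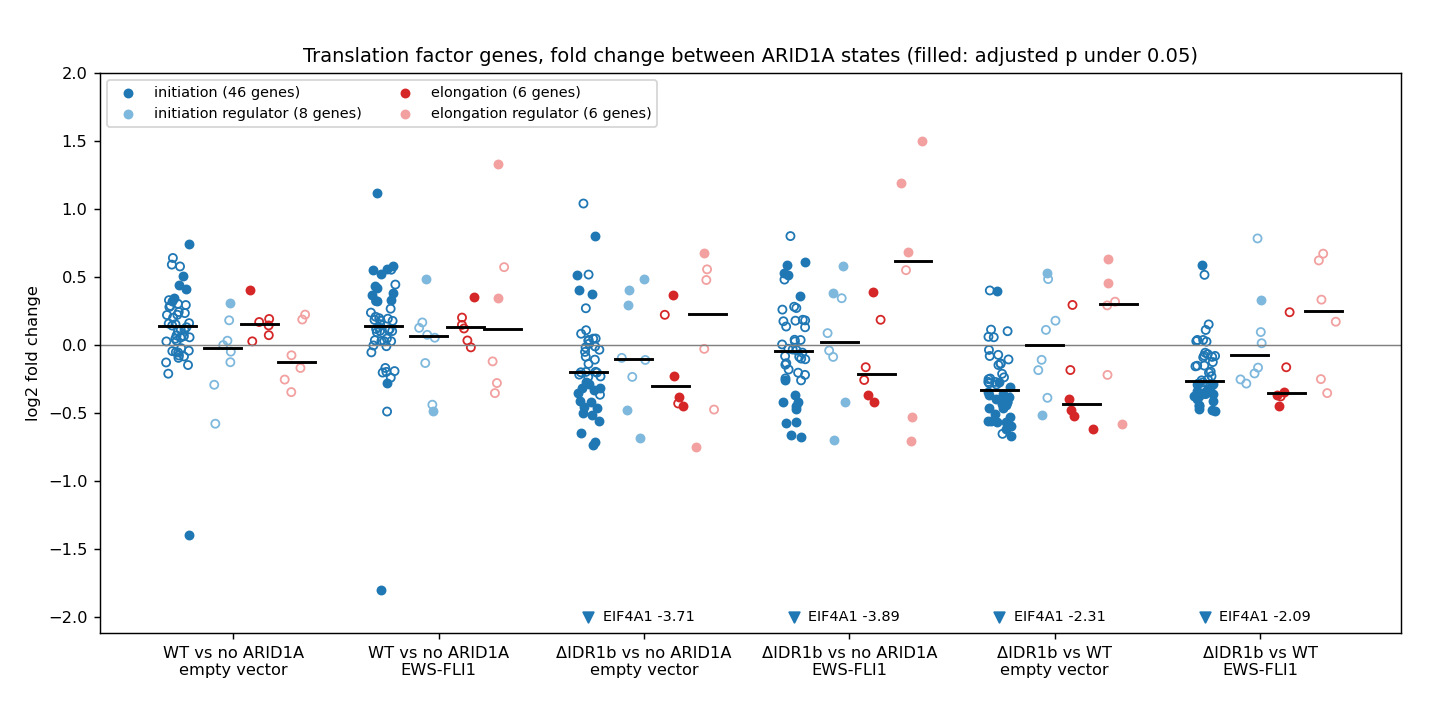
Log2 fold changes of the 66 tested members in the 6 comparisons of ARID1A states, by class. Each point is a gene, filled where it was called, and the lines are class medians; triangles mark EIF4A1 where it lies below the axis, with its value. In both comparisons of ΔIDR1b with WT the medians of initiation and elongation factors lie below 0 (-0.33 and -0.44 with the empty vector), while in WT against no ARID1A they lie just above it.

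Both vectors gave similar values in libraries that they do not share. The fold change of WT against no ARID1A had the same sign with both vectors in 55 of 66 members, that of ΔIDR1b against no ARID1A in 58, and that of ΔIDR1b against WT in 64. The median absolute difference between the vectors was 0.09, 0.11 and 0.11 on the log2 scale. In the first comparison 9 members were called with both vectors: EIF5B, EIF4EBP2, EIF1AD, EIF2S1, EIF3J, EIF2S2, EEF1A2 and EIF3D higher and EIF4A1 lower. In ΔIDR1b against no ARID1A 24 were called with both. The 8 higher ones were EIF2AK2, EIF5B, EEF1D, EIF4EBP2, EIF1AD, EIF2S1, EIF5 and EEF2K. The 16 lower ones were EIF1, EIF1B, EIF2B1, EIF2B4, EIF2D, EIF2AK3, EIF3E, EIF3F, EIF4A1, EIF4A2, EIF4A3, EIF4E, EIF4EBP1, EEF1A1, EEF1B2 and EEF1AKMT3. In ΔIDR1b against WT 22 were called with both, EIF5 higher and 21 lower. Signs and calls shared by both vectors were not counted over all genes. This agreement is therefore not shown to be particular to the members.

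The sequences at the transcript starts come before the genes, because the TOP tract is the feature that elongation factors and part of the initiation factors are known to share. RefSeq promoters (GRCh38.p14) were matched for 54 members, 52 of them tested, and a window from 5 bases before the annotated start to 20 from it was read. A tract was taken as a C at the start followed by at least 4 bases that are each C or T, read on the gene's own strand. It was present in 12 of the 52 tested members (23.1%) and in 1429 of 35116 promoters (4.07%). EIF2A, EIF4A2 and EIF2S3 hold a tract and fell in ΔIDR1b against WT with both vectors, but their starts are not printed. The following starts are of the other members that fell in this comparison with both vectors and hold a tract, in capitals:
EEF1A1: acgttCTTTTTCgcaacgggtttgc
EEF2: gcgttCTCTTCCgccgtcgtcgccg
EIF3F: gcctcCTTCTTTCTCgacaagatgg
EIF4B: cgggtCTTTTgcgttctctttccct
EIF3M: gttccCTTTTCCggtcggcgtggtc
EIF2D: cgggcCCTTTTCgcggccgggcccc
They lie at chr6:73521013-73521037 (minus strand), chr19:3985444-3985468 (minus), chr11:7987332-7987356 (plus), chr12:53006451-53006475 (plus), chr11:32583826-32583850 (plus) and chr1:206612446-206612470 (minus). Without a tract at a matched start, EIF1, EIF1B, EIF2B1, EIF3I, EIF4A1, EIF4A3, EIF4E and EEF1B2 also fell in ΔIDR1b against WT with both vectors. For contrast, EIF5B, EIF1AD and EIF4EBP2, which were higher with both forms of ARID1A than without it, and EEF1B2 read:
EIF5B: aactcacaccatatgtgtcctgttc
EIF1AD: ccggaagtacggttttcggagggat
EIF4EBP2: cgcccgcttccggtcgtcgtcgtcg
EEF1B2: gccccagcctcgaggccgggcgtct
These are at chr2:99337384-99337408 (plus), chr11:66002138-66002162 (minus), chr10:70404140-70404164 (plus) and chr2:206159604-206159628 (plus). An annotated start can differ from the start used in these cells, and a missing tract says only that these letters are not in the window.

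With a tract, 10 of 12 members were lower and 0 higher in ΔIDR1b against WT with the empty vector, and 9 lower and 0 higher with EWS-FLI1. Without one, 13 of 40 were lower and 3 higher in the first case and 8 lower and 2 higher in the second. The medians were -0.42 and -0.36 with a tract and -0.24 and -0.15 without. Against no ARID1A, ΔIDR1b had 8 of the 12 lower and 0 higher in empty-vector cells (median -0.31), and 4 lower and 0 higher with EWS-FLI1 (-0.15). In the 40 others, 11 were lower and 8 higher in empty-vector cells (-0.10), and 10 lower and 9 higher with EWS-FLI1 (0.02). In WT against no ARID1A, 0 of those with a tract were lower and 1 higher in empty-vector cells, and 1 lower and 2 higher in EWS-FLI1 cells. These counts describe the members and were not tested. Of all genes, 13.4 and 10.1% were lower and 11.1 and 8.48% higher in ΔIDR1b against WT. Against no ARID1A, 16.8 and 17.9% were lower and 16.4 and 18.1% higher in ΔIDR1b. For WT these shares were 5.19 and 8.36% lower and 6.5 and 9.72% higher. Calls were not counted over all genes with a tract, so the fall is not shown to be particular to these members. A list of known TOP mRNAs among the members gave 8 tested genes (EEF1A1, EEF1B2, EEF1D, EEF2, EIF3E, EIF3F, EIF3H and EIF4B), and was chosen with earlier results of these data known. In ΔIDR1b against WT 7 of the 8 were lower and 0 higher with each vector (medians -0.41 and -0.36), while the 58 other members had 23 lower and 4 higher in empty-vector cells, against 14 lower and 2 higher in EWS-FLI1 cells (medians -0.26 and -0.20). In WT against no ARID1A 0 of the 8 were called with either vector (medians 0.07 and 0.08). In ΔIDR1b against no ARID1A 7 were lower and 1, EEF1D, was higher with the empty vector, while 4 were lower, EEF1D was higher and the other 3 were not called with EWS-FLI1.

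The main eEF1A gene, EEF1A1 (chr6:73489308-73525587, minus strand, GRCh38.p13), fell in ΔIDR1b against both other states. With the empty vector it read 10227 and 9806 CPM in no ARID1A, 10527 and 9874 CPM in WT, and 7166 and 7486 CPM in ΔIDR1b. With EWS-FLI1 the pairs were 9697 and 10062 CPM, 10551 and 9658 CPM, and 6955 and 7822 CPM. All 4 ΔIDR1b libraries lay under all 8 others, and the libraries of WT and no ARID1A overlapped. Against no ARID1A the log2 fold change in ΔIDR1b was -0.45 (SE 0.08, q = 4.00e-05, a level 1.37-fold lower) with the empty vector and -0.42 (SE 0.08, q = 9.61e-05) with EWS-FLI1. Against WT it was -0.48 (SE 0.08, q = 3.94e-05) and -0.45 (SE 0.08, q = 1.41e-04). All 4 of these calls held in every alternative run, with q up to 0.0341. WT against no ARID1A gave 0.03 with each vector (SE 0.08, q = 0.876 and 0.826).

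EEF1A2 (chr20:63488013-63499239, minus strand), the second eEF1A isoform and the main one of muscle and neurons, had another pattern. It read 565.1 and 542.3 CPM in no ARID1A, 779.3 and 687.8 CPM in WT and 666.4 and 624.6 CPM in ΔIDR1b with the empty vector. With EWS-FLI1 it read 523.3 and 555.7 CPM, 612.6 and 761.7 CPM, and 565.3 and 661.2 CPM. WT libraries were above those of no ARID1A for both vectors, with ΔIDR1b between, overlapping WT with EWS-FLI1. WT exceeded no ARID1A by 0.41 (SE 0.10, q = 0.00797) and 0.35 (SE 0.10, q = 0.0152). The first call was lost without no-ARID1A repeat 2 or WT repeat 1 (q up to 0.151), and the second without either repeat of no ARID1A or WT repeat 2 (q up to 0.202). ΔIDR1b did not pass the test against either state, with 0.22 and 0.18 against no ARID1A (SE 0.10, q = 0.0956 and 0.163, the first with q = 0.0235 when the repeats were blocked within each vector) and -0.18 and -0.16 against WT (SE 0.10, q = 0.195 and 0.277). EEF1A2 thus made up 5.12 to 5.24% of the EEF1A counts in no ARID1A, 5.49 to 7.31% in WT and 7.52 to 8.51% in ΔIDR1b, and the ranges of the 3 states did not overlap.

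EEF2 (chr19:3976056-3985463, minus strand), the translocase, was lower in ΔIDR1b than in WT. With the empty vector it read 6746 and 6558 CPM in no ARID1A, 7966 and 6984 CPM in WT and 5739 and 5611 CPM in ΔIDR1b. With EWS-FLI1 it read 6045 and 6261 CPM, 6512 and 7633 CPM, and 5131 and 5854 CPM. For each vector ΔIDR1b libraries were lowest and WT highest, without overlap. ΔIDR1b against WT gave -0.40 (SE 0.09, q = 9.92e-04) and -0.36 (SE 0.09, q = 0.00325), the second lost without ΔIDR1b repeat 1 (q = 0.0642). Against no ARID1A it was -0.23 (SE 0.09, q = 0.0411) with the empty vector, a call lost in DESeq2 (q = 0.0502) and without any 1 of the 4 libraries compared or no-ARID1A repeat 2 with EWS-FLI1 (q up to 0.173). With EWS-FLI1 it was -0.16 (SE 0.09, q = 0.146).

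The guanine-nucleotide exchange subunits of eEF1B moved in opposite directions. EEF1B2 (eEF1B alpha) read 322.5 and 294.9 CPM in no ARID1A, 343.1 and 338.6 CPM in WT and 250.9 and 223.3 CPM in ΔIDR1b with the empty vector. The pairs with EWS-FLI1 were 298.8 and 320.1 CPM, 325.3 and 285.9 CPM, and 229.3 and 250.4 CPM. All 4 ΔIDR1b libraries lay under all others. ΔIDR1b fell by 0.52 (SE 0.10, q = 1.94e-04) and 0.35 (SE 0.10, q = 0.0123) against WT, and by 0.38 (SE 0.10, q = 0.0032) and 0.37 (SE 0.10, q = 0.00393) against no ARID1A. Of these the call against WT with the empty vector held in every alternative. The one with EWS-FLI1 was lost without WT or ΔIDR1b repeat 1 (q up to 0.143), and those against no ARID1A without no-ARID1A repeat 1 or ΔIDR1b repeat 2 with the empty vector (q up to 0.0943), and no-ARID1A repeat 2 or ΔIDR1b repeat 1 with EWS-FLI1 (q up to 0.073). They were also lost when a trend with exonic length was removed (q up to 0.145). EEF1D (eEF1B delta) read 128.3 and 125.4 CPM, 141.8 and 124.8 CPM, and 168.4 and 158.5 CPM with the empty vector, and 114.6 and 138.5 CPM, 125.6 and 154.6 CPM, and 160.8 and 170.2 CPM with EWS-FLI1. ΔIDR1b libraries were highest. They exceeded no ARID1A by 0.37 (SE 0.11, q = 0.0112) and 0.39 (SE 0.11, q = 0.00688), while the differences from WT, 0.29 and 0.24, did not pass (q = 0.0519 and 0.131, but 0.00736 and 0.0325 with the repeats blocked within each vector). Both calls were lost with the length trend removed (q up to 0.212), without no-ARID1A repeat 1, and without no-ARID1A repeat 2 or ΔIDR1b repeat 1 (empty vector, q up to 0.102) or ΔIDR1b repeat 2 (EWS-FLI1, q up to 0.204). Exons of other genes cover 34% of the exonic bases of EEF1D, where no fragment was counted.

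The gamma subunit gene, EEF1G (chr11:62559596-62574086, minus strand), had 1 fragment in all 12 libraries together and 0 in 11 of them. Exons of the overlapping annotated gene ENSG00000255508 cover 99.7% of its exonic bases, and fragments in exons of more than 1 gene were not counted, so these counts do not measure EEF1G. EEF1E1, which encodes a scaffold protein of the aminoacyl-tRNA synthetase complex, ranged from 15.43 to 26.52 CPM. It was lower in ΔIDR1b than in WT with the empty vector (log2 -0.62, SE 0.17, q = 0.00694), a call lost without WT repeat 2 or ΔIDR1b repeat 1 (q up to 0.0855), and was at -0.38 with EWS-FLI1 (q = 0.114).

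**Figure D2:**
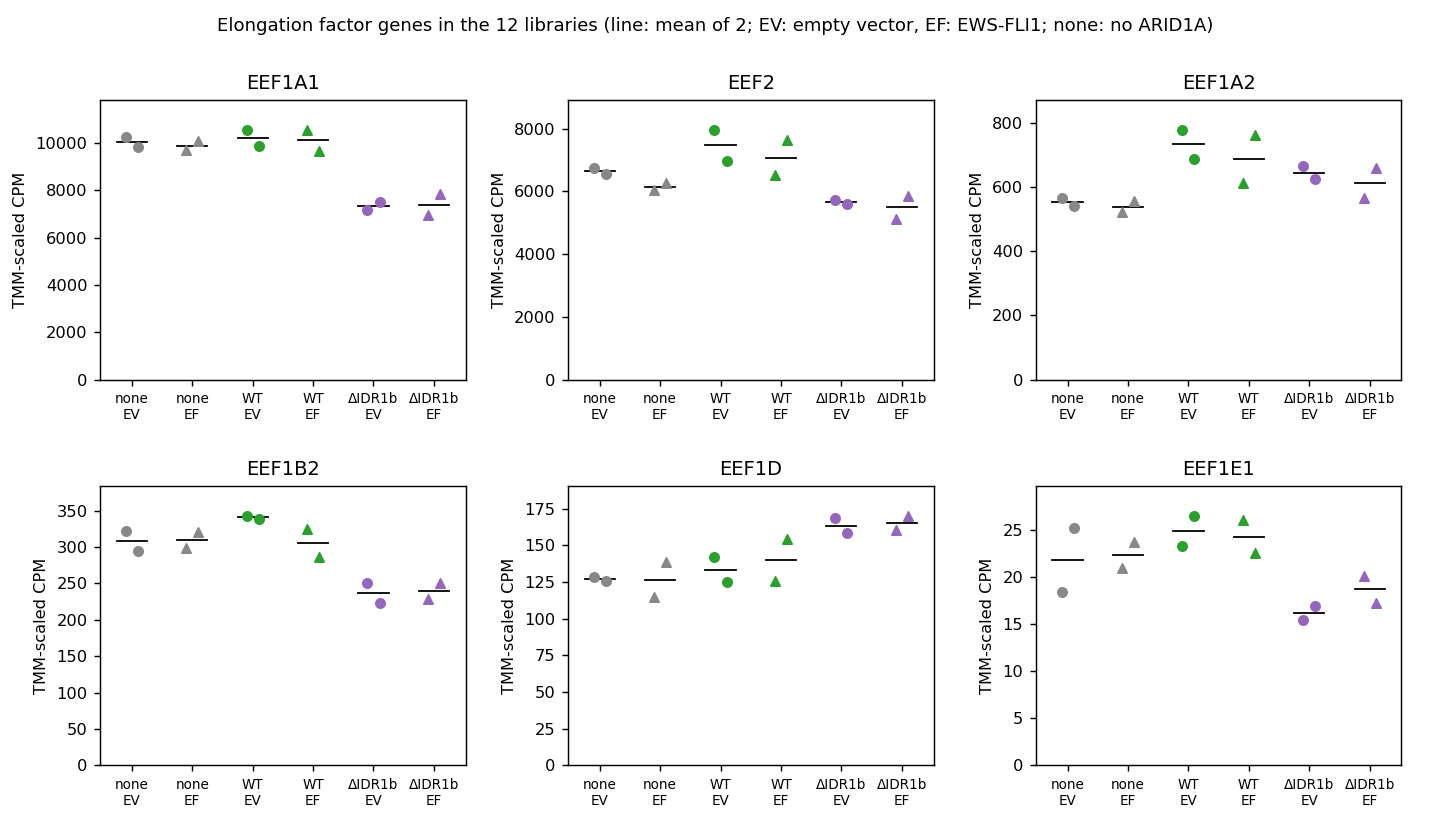
Level in CPM (linear axis from 0, scaled by TMM) of the 6 tested elongation factors in each of the 12 libraries, by ARID1A state and vector; points are libraries, circles with the empty vector (EV) and triangles with EWS-FLI1 (EF), and lines are group means. The ΔIDR1b points of EEF1A1 and EEF1B2 lie under those of both other states, those of EEF1D lie above them, and those of EEF1A2 lie between the other states with the empty vector and overlap WT with EWS-FLI1.

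The median fold changes of elongation and initiation factors were close, while the share of counts taken by elongation factors was lowest in ΔIDR1b. In ΔIDR1b against WT the median log2 fold change was -0.44 for 6 elongation factors and -0.33 for 46 initiation factors with the empty vector, against -0.36 and -0.27 with EWS-FLI1. The difference between the classes was -0.11 and -0.09. The spread of this difference was not measured. A related value, the difference of the class medians of log2 CPM in a library, had an SD of 0.12 between repeats. Against no ARID1A the difference in median fold change was -0.11 (medians -0.30 and -0.20) and -0.16 (-0.21 and -0.05). The latter came to 0.00 with the length trend removed and to -0.01 with EIF5A and EIF5A2 counted as elongation factors. In WT against no ARID1A the difference was 0.02 (0.16 and 0.14) and -0.01 (0.13 and 0.14). By calls, 4 of 6 elongation factors and 24 of 46 initiation factors were lower in ΔIDR1b than in WT with the empty vector, against 3 and 18 with EWS-FLI1, while 0 elongation factors and 1 initiation factor were higher with each. Against no ARID1A, 3 and 2 elongation factors and 17 and 11 initiation factors were lower, and 1 and 1, and 4 and 5, were higher. In WT against no ARID1A, 1 elongation factor was higher with each vector, and 6 and 11 initiation factors were higher and 1 and 2 lower. Of all genes, 13.4 and 10.1% were lower and 11.1 and 8.48% higher in ΔIDR1b against WT. Against no ARID1A, 16.8 and 17.9% were lower and 16.4 and 18.1% higher in ΔIDR1b. For WT, 6.5 and 9.72% were higher and 5.19 and 8.36% lower. Higher initiation factors in ΔIDR1b against no ARID1A thus did not exceed the background. The lower initiation factors include EIF4A1 each time, whose count is described below. The summed TPM of elongation factors was 1.47 to 1.55 times that of initiation factors in no ARID1A, 1.41 to 1.59 times in WT and 1.29 to 1.44 times in ΔIDR1b. In that ratio ΔIDR1b and WT overlapped, while ΔIDR1b and no ARID1A did not. In summed counts, not divided by length, the ratio was 1.639 to 1.708 in no ARID1A, 1.61 to 1.73 in WT and 1.401 to 1.545 in ΔIDR1b, where all 4 libraries lay below the 8 others. Elongation factors took 1.65 to 1.75% of all counts in no ARID1A, 1.73 to 1.84% in WT and 1.40 to 1.55% in ΔIDR1b. EEF1A1 and EEF2 made up 92.14 to 94.31% of these elongation-factor counts. Initiation factors took 1.006 to 1.027%, 1.038 to 1.08% and 0.9694 to 1.007% of all counts in the same order. Their share was thus also lower in ΔIDR1b than in WT, but overlapped that of no ARID1A.

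EIF4A1 (chr17:7572824-7579006, plus strand), the main helicase of eIF4F, had the largest fold change of the tested members in all 6 comparisons of states, and its count needs care. It read 197.3 and 203 CPM in no ARID1A, 69.56 and 82.17 CPM in WT and 13.96 and 16.51 CPM in ΔIDR1b with the empty vector. With EWS-FLI1 it read 194 and 190.5 CPM, 57.66 and 52.53 CPM, and 12.32 and 13.55 CPM. The 3 states were far apart, in the order no ARID1A, WT and ΔIDR1b, with both vectors. WT was 2.64-fold lower than no ARID1A with the empty vector (log2 -1.40, SE 0.11, q = 6.85e-11), and the log2 fold change with EWS-FLI1 was -1.80 (SE 0.11, q = 2.05e-13). ΔIDR1b was 13.1-fold lower than no ARID1A (-3.71, SE 0.13, q = 2.31e-21) and 14.9-fold lower with EWS-FLI1 (-3.89, SE 0.13, q = 1.30e-21). Against WT it was at -2.31 (SE 0.13, q = 4.54e-15) and -2.09 (SE 0.13, q = 1.43e-13). All 6 calls held in every alternative.

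What was counted for EIF4A1 is not its spliced mRNA. All 1756 exonic bases of its principal mRNA (GENCODE release 29) lie in exons of the readthrough gene SENP3-EIF4A1 or of ENSG00000264772, where fragments overlap more than 1 gene and were left out. Of the 5199 exonic bases annotated for EIF4A1 in the count files, 2189 are shared in this way. The remaining 3010 form 9 stretches that all lie between exons of the readthrough gene, and 2 of 3 snoRNA genes in the locus (SNORA48, SNORA67 and SNORD10) lie wholly within those stretches. The counts, 2654 and 2715 in no ARID1A, 935 and 1100 in WT and 191 and 231 in ΔIDR1b with the empty vector, are thus of RNA that retains sequence between the mRNA's exons. SENP3-EIF4A1 itself had 1 to 23 counts. SNHG1 and GAS5, snoRNA host genes outside the members that were chosen after their values were seen, also differed between the states. SNHG1 had 9553 and 10693 counts, 6395 and 6116 counts, and 2239 and 2336 counts in the same order. GAS5 had 6786 and 6419, 5464 and 5117, and 2739 and 2794. Further host genes outside the members were not counted, so these genes do not describe host genes in general. Among the members, the 8 that host snoRNA genes had medians of -0.27 and -0.22 in ΔIDR1b against WT, beside -0.28 and -0.24 in the 58 others. Without the 6 tested members of which at least 30% of the exonic bases are shared (EIF4A1, EIF3L, EEF1D, EEF1AKMT4, EEF2KMT and EIF4EBP3), the remaining 60 had 3 higher and 28 lower in ΔIDR1b against WT in empty-vector cells, and 2 and 19 in EWS-FLI1 cells.

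**Figure D3:**
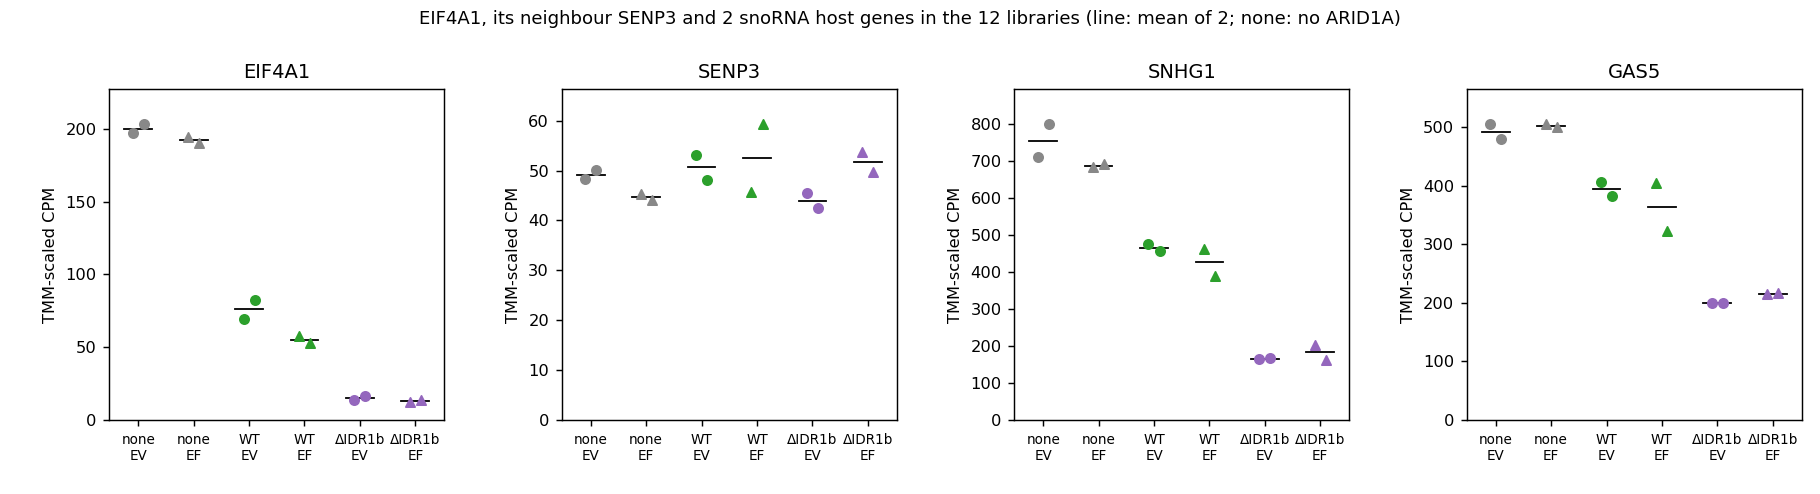
Level in CPM (linear axis from 0, scaled by TMM) of EIF4A1, of SENP3, the other gene joined in the readthrough gene, and of the snoRNA host genes SNHG1 and GAS5 in the 12 libraries, by ARID1A state and vector; points are libraries, circles with the empty vector (EV) and triangles with EWS-FLI1 (EF), and lines are group means. EIF4A1, SNHG1 and GAS5 stand in the order no ARID1A, WT, ΔIDR1b with both vectors, EIF4A1 from 203 CPM at most to 12.32 CPM at least, while the SENP3 libraries lie between 42.46 and 59.28 CPM with no such order.

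The paralogue EIF4A2 (chr3:186783205-186789897, plus strand), which also works in eIF4F, fell in ΔIDR1b on a smaller scale. It read 463.2 and 487.3 CPM in no ARID1A, 468.1 and 446.4 CPM in WT and 320.9 and 342.6 CPM in ΔIDR1b with the empty vector, and 472.6 and 463.4 CPM, 496 and 437.4 CPM, and 348.2 and 352.4 CPM with EWS-FLI1. All 4 ΔIDR1b libraries were below all 8 others. Against no ARID1A ΔIDR1b was at -0.52 (SE 0.09, q = 4.70e-05) and -0.42 (SE 0.09, q = 6.00e-04), and against WT at -0.46 (SE 0.09, q = 3.81e-04) and -0.41 (SE 0.09, q = 0.00183). The last call was lost only when the 4 libraries compared were fitted alone (q = 0.0617). EIF4A3 (chr17:80134369-80147151, minus strand), the helicase of the exon junction complex, which marks spliced mRNA, read 317.9 and 271.6 CPM, 246.3 and 262.9 CPM, and 179.7 and 173.8 CPM with the empty vector, and 282 and 294.1 CPM, 248.6 and 253.6 CPM, and 181.7 and 205.4 CPM with EWS-FLI1. Its libraries stood in the order no ARID1A, WT, ΔIDR1b with both vectors. ΔIDR1b was at -0.74 (SE 0.10, q = 5.96e-07) and -0.57 (SE 0.10, q = 2.75e-05) against no ARID1A and at -0.53 (SE 0.10, q = 2.01e-04) and -0.38 (SE 0.10, q = 0.00778) against WT, the last lost without ΔIDR1b repeat 1 (q = 0.139). WT did not pass against no ARID1A (-0.21 and -0.20, q = 0.17 and 0.172).

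In eIF4F and its RNA-binding partners, 10 tested genes, 5 were lower and 0 higher in ΔIDR1b than in WT with the empty vector, against 4 and 0 with EWS-FLI1. Of all genes, 13.4 and 10.1% were lower there. The cap-binding protein gene EIF4E (chr4:98879276-98929133, minus strand) read 83.71 and 94.75 CPM in no ARID1A, 98.8 and 93.83 CPM in WT and 64.41 and 65.98 CPM in ΔIDR1b with the empty vector. The pairs with EWS-FLI1 were 93.17 and 85.03 CPM, 98.91 and 93.24 CPM, and 71.21 and 66.87 CPM. ΔIDR1b was again below every other library, at -0.56 (SE 0.11, q = 2.71e-04) and -0.48 (SE 0.11, q = 0.00226) against WT, and at -0.45 (SE 0.11, q = 0.00165) and -0.37 (SE 0.11, q = 0.00866) against no ARID1A. The calls against WT held throughout. Those against no ARID1A were lost without no-ARID1A repeat 2 (empty vector, q = 0.0634) and without no-ARID1A repeat 1 or ΔIDR1b repeat 2 (EWS-FLI1, q up to 0.128). The scaffold gene EIF4G1 did not pass in any comparison. It read 548.2 and 540.1 CPM, 562.2 and 545.8 CPM, and 576.8 and 575.2 CPM with the empty vector, and 518.1 and 528.1 CPM, 516.6 and 606.1 CPM, and 561.9 and 582.7 CPM with EWS-FLI1. Its log2 fold changes lay between 0.03 and 0.13 (SE 0.09, q from 0.285 to 0.894).

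The inhibitors that bind eIF4E moved apart. EIF4EBP2 rose with both forms of ARID1A: it read 188.2 and 188.1 CPM in no ARID1A, 229.6 and 236.4 CPM in WT and 264.9 and 262.3 CPM in ΔIDR1b with the empty vector, and 172.1 and 164.9 CPM, 247.3 and 225.4 CPM, and 251.6 and 253.1 CPM with EWS-FLI1. No library of no ARID1A reached those of the other states. ΔIDR1b exceeded no ARID1A by 0.49 (SE 0.09, q = 1.34e-04) and 0.58 (SE 0.10, q = 1.06e-05), and WT did so by 0.31 (SE 0.09, q = 0.0294) and 0.49 (SE 0.10, q = 3.72e-04). Only the WT call with the empty vector was lost in an alternative: without any 1 of the 4 libraries compared or no-ARID1A repeat 2 with EWS-FLI1 (q up to 0.181), and with upper-quartile scaling (q = 0.0929). EIF4EBP1, the best-known target of mTOR in initiation, read 220 and 197.4 CPM, 223.1 and 203.3 CPM, and 155.8 and 143 CPM with the empty vector, and 235.1 and 226.9 CPM, 198.5 and 222.8 CPM, and 149.6 and 196.4 CPM with EWS-FLI1. ΔIDR1b was the lowest state in both, at -0.48 (SE 0.11, q = 0.001) and -0.42 (SE 0.11, q = 0.00343) against no ARID1A, and at -0.51 (SE 0.11, q = 8.93e-04) against WT with the empty vector but -0.28 (q = 0.0698, or 0.00914 with the repeats blocked within each vector) with EWS-FLI1. These calls rest on the processing: with the length trend removed the one with the empty vector was lost (q up to 0.993 over the fits that remove it), the one with EWS-FLI1 turned to 0.13, and that against WT had q = 0.056. The call with EWS-FLI1 was also lost without ΔIDR1b repeat 1 (q = 0.187). EIF4ENIF1, the transporter that takes eIF4E into the nucleus and into P-bodies, was higher in ΔIDR1b with the empty vector, by 0.53 (SE 0.13, q = 0.00273) against WT and by 0.40 (SE 0.13, q = 0.0152) against no ARID1A. The latter was lost without either repeat of no ARID1A or ΔIDR1b repeat 2 (q up to 0.127) and with the length trend removed (q = 0.0607). With EWS-FLI1 the values were 0.01 and 0.09 (q = 0.959 and 0.645).

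Among the subunits of eIF2, which carries the initiator tRNA, EIF2S1 (eIF2 alpha, the subunit phosphorylated under stress) was higher with either form of ARID1A: it read 76.42 and 83.01 CPM in no ARID1A, 113.3 and 102.8 CPM in WT and 102.4 and 108.2 CPM in ΔIDR1b with the empty vector, and 78.25 and 79.24 CPM, 130.8 and 105.1 CPM, and 117.4 and 107.7 CPM with EWS-FLI1. The 4 libraries of no ARID1A were the lowest of the 12, and WT and ΔIDR1b overlapped with both vectors. WT exceeded no ARID1A by 0.44 (SE 0.11, q = 0.00913) and 0.58 (SE 0.11, q = 3.55e-04), and ΔIDR1b did so by 0.40 (SE 0.11, q = 0.00578) and 0.52 (SE 0.11, q = 5.05e-04). Both calls with EWS-FLI1 held in every alternative. Those with the empty vector were lost without no-ARID1A repeat 1, without WT repeat 1 (q up to 0.141) and without ΔIDR1b repeat 2 (q up to 0.0927). EIF2S3 (eIF2 gamma) read 645.3 and 679.2 CPM, 773.2 and 784.4 CPM, and 570.7 and 584.3 CPM with the empty vector, and 646.6 and 628.7 CPM, 778.8 and 662.8 CPM, and 605.5 and 580 CPM with EWS-FLI1. WT was highest and ΔIDR1b lowest with both vectors. ΔIDR1b was at -0.43 (SE 0.09, q = 7.10e-04) and -0.28 (SE 0.09, q = 0.0286) against WT, the second lost without WT repeat 1 or either ΔIDR1b repeat (q up to 0.25) and with upper-quartile scaling. WT against no ARID1A, at 0.23 and 0.18, did not pass (q = 0.093 and 0.188), nor did ΔIDR1b, at -0.20 and -0.11 (q = 0.0967 and 0.395). With the repeats blocked within each vector both values with the empty vector did (q = 0.0303 and 0.0444). EIF2S2 (eIF2 beta) was higher in WT than in no ARID1A, by 0.35 (SE 0.11, q = 0.0301) and 0.33 (SE 0.11, q = 0.0312). The first was lost without any 1 of the 4 libraries compared (q up to 0.215) and the second without any 1 of them except WT repeat 2 (q up to 0.511). Both were also lost with upper-quartile scaling (q = 0.0811 and 0.129 at most). EIF2S2 was also lower in ΔIDR1b than in WT with the empty vector (-0.31, SE 0.11, q = 0.0312), a call lost without any 1 of the 4 libraries compared (q up to 0.156) and with upper-quartile scaling, and was at -0.15 with EWS-FLI1 (q = 0.342). As for EIF2S3, its level was highest in WT with the empty vector.

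Of the 5 genes of eIF2B, which recharges eIF2 with GTP, 2 were lower and 0 higher in ΔIDR1b than in no ARID1A with the empty vector, against 2 lower and 1 higher with EWS-FLI1. EIF2B1 and EIF2B4 were the lower ones with both. Of all genes, 33.3 and 35.9% were called there (16.8 and 17.9% lower), so with 5 genes these counts do not set eIF2B apart. EIF2B3 was higher in WT than in no ARID1A with EWS-FLI1 (0.52, SE 0.12, q = 0.00316), a call lost without no-ARID1A repeat 2 (q = 0.0513), and was at 0.15 with the empty vector (q = 0.473). Of the 4 kinases that phosphorylate eIF2 alpha, EIF2AK3 (PERK, the sensor of the endoplasmic reticulum; chr2:88556741-88691518, minus strand) was lower with ARID1A. It read 40.89 and 45.25 CPM in no ARID1A, 35.93 and 34.36 CPM in WT and 25.81 and 27.88 CPM in ΔIDR1b with the empty vector, and 41.85 and 38.45 CPM, 31.24 and 26 CPM, and 28.31 and 21.2 CPM with EWS-FLI1. Libraries of no ARID1A were highest, and WT and ΔIDR1b overlapped with EWS-FLI1. ΔIDR1b was at -0.68 (SE 0.15, q = 4.27e-04) and -0.70 (SE 0.15, q = 3.36e-04) against no ARID1A in calls that held throughout. WT was at -0.29 (q = 0.192) and -0.49 (SE 0.15, q = 0.0178), the latter lost without either repeat of no ARID1A or WT repeat 2 (q up to 0.162). EIF2AK2 (PKR, the sensor of double-stranded RNA) was higher in ΔIDR1b than in no ARID1A, by 0.29 (SE 0.11, q = 0.0409) and 0.38 (SE 0.11, q = 0.00726). With EWS-FLI1 this was lost without no-ARID1A repeat 2 or ΔIDR1b repeat 1 (q up to 0.146), and with the empty vector without any 1 of the 8 libraries of the 2 states except the ΔIDR1b libraries with EWS-FLI1 (q up to 0.191). Removing the length trend also ended both calls (q up to 0.313 and 0.0977). EIF2AK2 was also higher in ΔIDR1b than in WT with EWS-FLI1 (0.33, SE 0.11, q = 0.0347), and 9 of the 12 fits that leave out a library lost this call (q up to 0.204): it held without either WT library with the empty vector or WT repeat 1 with EWS-FLI1.

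The eIF3 complex, 14 tested genes, was lower in ΔIDR1b than in WT: 9 genes fell and 0 rose with the empty vector, and 7 fell and 0 rose with EWS-FLI1 (medians -0.38 and -0.33). Against no ARID1A 5 and 2 fell, and in WT against no ARID1A 2 and 3 rose and 0 fell. Of all genes, 13.4 and 10.1% fell in ΔIDR1b against WT, and 16.8 and 17.9% fell in ΔIDR1b against no ARID1A. In WT against no ARID1A 6.5 and 9.72% of all genes rose. EIF3E, a subunit at the rim of the complex, read 495 and 510.3 CPM in no ARID1A, 517.4 and 533.9 CPM in WT and 354.1 and 358.1 CPM in ΔIDR1b with the empty vector, and 501.3 and 472.2 CPM, 545.6 and 446.2 CPM, and 368 and 359.7 CPM with EWS-FLI1. All 4 ΔIDR1b libraries were below the 8 others. ΔIDR1b was at -0.56 (SE 0.10, q = 5.21e-05) and -0.45 (SE 0.10, q = 0.0012) against WT and at -0.50 (SE 0.10, q = 1.27e-04) and -0.42 (SE 0.10, q = 8.21e-04) against no ARID1A. Leaving out any single library kept these 4 calls, and the one against WT with EWS-FLI1 was lost only when the 4 libraries compared were fitted alone (q = 0.0544). EIF3F, a deubiquitinase-like subunit with a 10-base tract at its start, was at -0.42 (SE 0.10, q = 0.00251) and -0.48 (SE 0.10, q = 8.86e-04) against WT, calls lost without WT repeat 1 (q = 0.0776) and ΔIDR1b repeat 1 (q = 0.0502). Against no ARID1A it was at -0.46 (SE 0.10, q = 5.41e-04) and -0.45 (SE 0.10, q = 6.84e-04), in calls that held throughout. EIF3J, the loosely bound subunit, was instead higher in WT than in no ARID1A, by 0.51 (SE 0.14, q = 0.0142) and 0.43 (SE 0.14, q = 0.0276). Without any 1 of the 4 libraries compared the first was lost (q up to 0.118), and without no-ARID1A repeat 2 or WT repeat 1 the second (q up to 0.426).

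**Figure D4:**
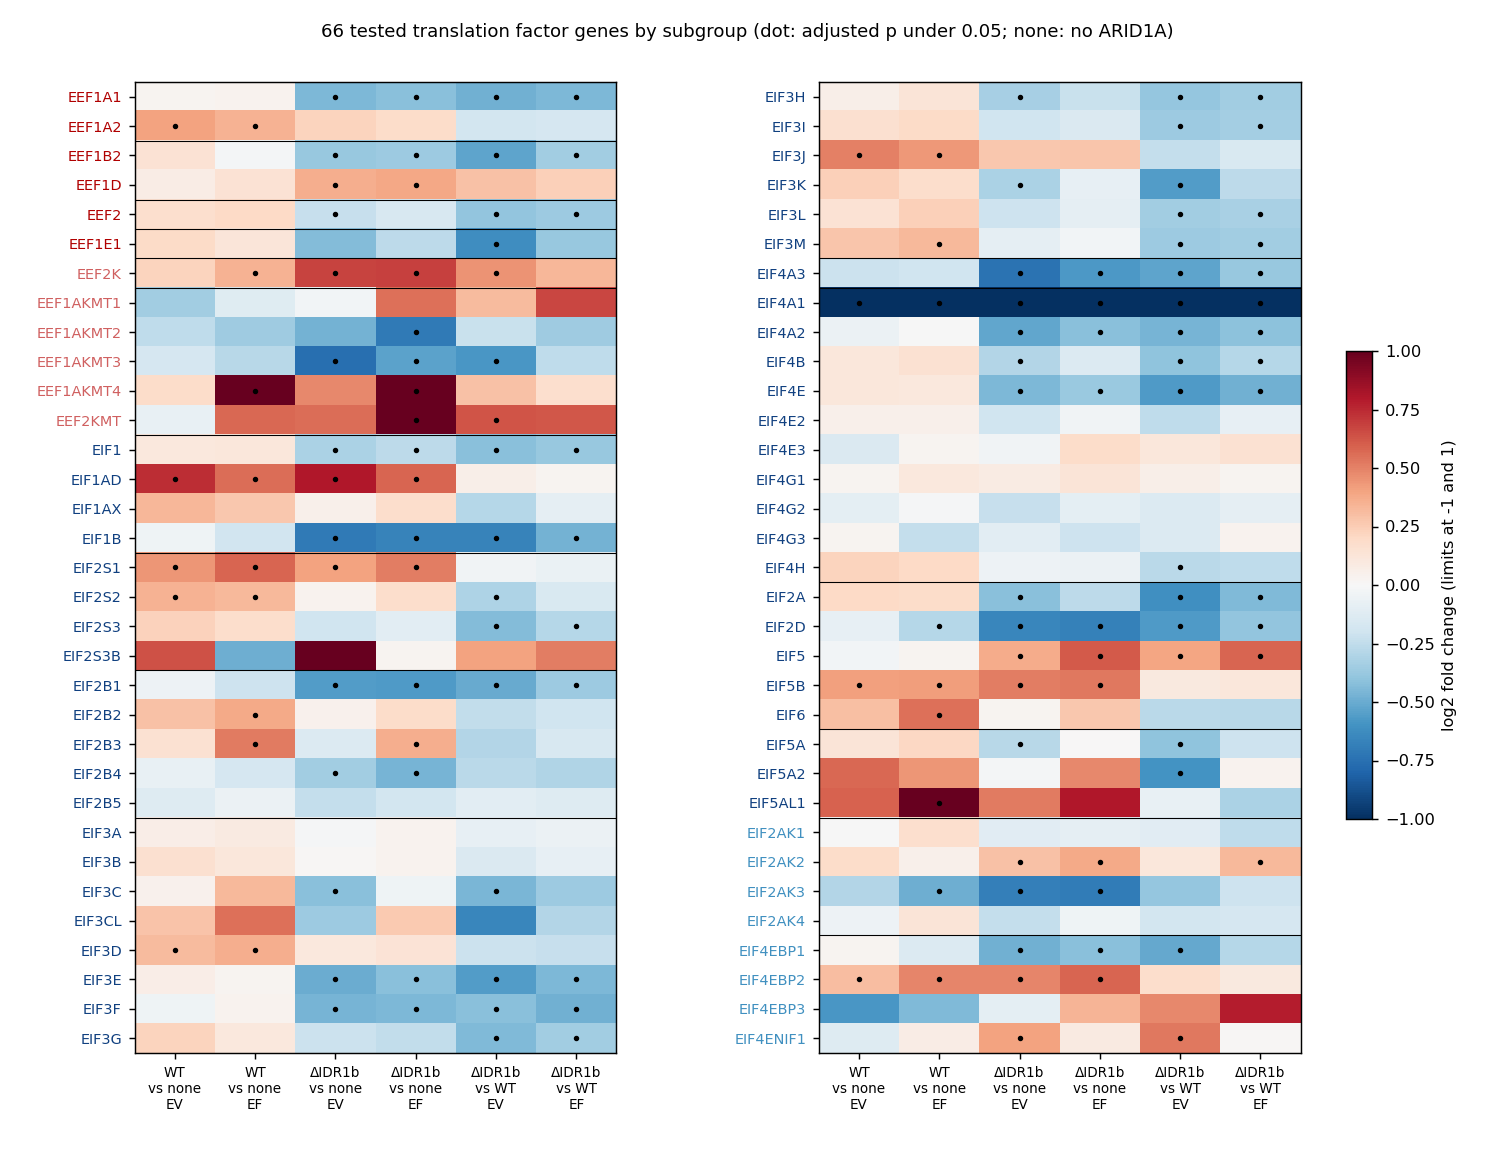
Log2 fold change of every tested member (rows, grouped by class) in the 6 comparisons of ARID1A states (columns). EV is the empty vector and EF is EWS-FLI1. Dots mark calls, and colours stop at -1 and 1. The eIF3 rows are mostly negative in both columns of ΔIDR1b against WT, where 9 and 7 of 14 were called lower, and EIF4A1 lies past the lower colour limit in all 6 columns.

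EIF1AD (chr11:65996545-66002176, minus strand), grouped here with eIF1A by its name, was higher with either form of ARID1A. It read 21.11 and 20.72 CPM in no ARID1A, 38.76 and 31.08 CPM in WT and 36.48 and 36.31 CPM in ΔIDR1b with the empty vector, and 20.63 and 23.42 CPM, 35.08 and 29.87 CPM, and 35.96 and 30.1 CPM with EWS-FLI1. The 4 libraries of no ARID1A were the lowest, and WT and ΔIDR1b overlapped. WT exceeded no ARID1A by 0.74 (SE 0.15, q = 0.0011) and 0.56 (SE 0.15, q = 0.00845), and ΔIDR1b did so by 0.80 (SE 0.15, q = 8.54e-05) and 0.58 (SE 0.15, q = 0.00266). The ΔIDR1b call with the empty vector held throughout, while the others were lost without WT repeat 1 (empty vector, q = 0.0697), without no-ARID1A repeat 1 or WT repeat 1 (EWS-FLI1, q up to 0.135), and without no-ARID1A repeat 1 or ΔIDR1b repeat 1 (EWS-FLI1, q up to 0.071). EIF1B (chr3:40309707-40312424, plus strand), a paralogue of EIF1, went down in ΔIDR1b: it read 75.68 and 77.48 CPM, 78.19 and 70.52 CPM, and 49.71 and 43.89 CPM with the empty vector, and 71.09 and 74.83 CPM, 70.53 and 57.16 CPM, and 47.78 and 44.28 CPM with EWS-FLI1. ΔIDR1b was at -0.71 (SE 0.12, q = 2.42e-05) and -0.66 (SE 0.12, q = 5.83e-05) against no ARID1A and at -0.67 (q = 1.19e-04) and -0.47 (q = 0.00632) against WT. The last was lost without WT repeat 1 or ΔIDR1b repeat 2 (q up to 0.0933), and the others held throughout. Its close relative EIF1 was also called lower with both vectors in both comparisons.

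EIF5 (chr14:103333544-103345025, plus strand), the GTPase-activating partner of eIF2, was the single member higher in ΔIDR1b than in WT with both vectors. It read 190.4 and 205.4 CPM in no ARID1A, 200.4 and 188.8 CPM in WT and 271.6 and 240.8 CPM in ΔIDR1b with the empty vector, and 191.9 and 200.7 CPM, 216.9 and 183.1 CPM, and 340.7 and 259.2 CPM with EWS-FLI1. All 4 ΔIDR1b libraries exceeded the 8 others. The difference from WT was 0.40 (SE 0.11, q = 0.00895) and 0.58 (SE 0.11, q = 3.60e-04), and that from no ARID1A 0.37 (SE 0.11, q = 0.0101) and 0.61 (SE 0.11, q = 5.84e-05). Only the last held throughout. Without ΔIDR1b repeat 1 each of the other 3 was lost (q up to 0.147, and 0.0504 against WT with EWS-FLI1), as were those with the empty vector without WT repeat 2 or no-ARID1A repeat 1 and with the length trend removed (q = 0.0516 and 0.0906). EIF5B, which joins the ribosomal subunits, was higher with both forms. It read 98.5 and 99.09 CPM in no ARID1A, 121.9 and 140.7 CPM in WT and 143.4 and 138.1 CPM in ΔIDR1b with the empty vector. ΔIDR1b exceeded no ARID1A by 0.51 (SE 0.12, q = 0.00103) and 0.53 (SE 0.12, q = 6.55e-04) in calls that held throughout. WT did so by 0.41 (SE 0.12, q = 0.0205) and 0.42 (SE 0.12, q = 0.0121), lost without either repeat of no ARID1A and without WT repeat 2 (empty vector) or 1 (EWS-FLI1), with q up to 0.24, and the first also with upper-quartile scaling (q = 0.053). EIF6, which keeps the large subunit from joining too early, was higher in WT than in no ARID1A with EWS-FLI1 (0.55, SE 0.12, q = 0.00169) and held throughout, with 0.30 (q = 0.102, or 0.0438 with the repeats blocked within each vector) for the empty vector.

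Both genes for alternative carriers of initiator tRNA fell in ΔIDR1b. EIF2D (chr1:206571292-206612465, minus strand) read 148.3 and 148.3 CPM in no ARID1A, 144.4 and 135.3 CPM in WT and 94.75 and 94.15 CPM in ΔIDR1b with the empty vector, and 142.9 and 157.7 CPM, 124 and 123.3 CPM, and 91.24 and 96.55 CPM with EWS-FLI1. ΔIDR1b lay far below the other states, at -0.65 (SE 0.10, q = 5.76e-06) and -0.68 (SE 0.10, q = 2.71e-06) against no ARID1A and at -0.57 (q = 9.57e-05) and -0.40 (q = 0.00571) against WT. The last was lost without ΔIDR1b repeat 1 (q = 0.0775). WT against no ARID1A with EWS-FLI1, at -0.28 (q = 0.0487), was lost on leaving out any 1 of the 12 libraries (q up to 0.381). EIF2A was at -0.62 (SE 0.12, q = 2.65e-04) and -0.44 (SE 0.12, q = 0.00855) against WT, the second lost without WT repeat 1 or ΔIDR1b repeat 2 (q up to 0.24). The eIF5A protein carries the hypusine residue and eases peptide bond formation at prolines. Its main gene, EIF5A, read 541.4 and 510 CPM, 618.8 and 531.6 CPM, and 448.1 and 421 CPM with the empty vector, and 508.1 and 477.4 CPM, 570.7 and 566.9 CPM, and 473.2 and 514.6 CPM with EWS-FLI1. With the empty vector ΔIDR1b was at -0.40 (SE 0.09, q = 0.00181) against WT, lost without WT repeat 1 (q = 0.0722), and at -0.27 (SE 0.09, q = 0.0237) against no ARID1A, lost without any 1 of the 4 libraries compared (q up to 0.191). With EWS-FLI1 the values were -0.20 (q = 0.131) and 0.00 (q = 0.984). EIF5A2 read 9.22 and 10.02 CPM, 13.91 and 14.79 CPM, and 8.48 and 10.51 CPM with the empty vector, and 7.76 and 8.73 CPM, 13.85 and 8.57 CPM, and 10.97 and 12.03 CPM with EWS-FLI1. It passed once, at -0.60 (SE 0.21, q = 0.0379) in ΔIDR1b against WT with the empty vector, lost without any 1 of the 4 libraries compared (q up to 0.282) and in DESeq2. In empty-vector cells its value in WT against no ARID1A was 0.58 (q = 0.0725, or 0.0328 with the repeats blocked within each vector). The near-copy EIF5AL1, whose fragments can be shared with EIF5A, rose by 1.11 (SE 0.36, q = 0.0263) in WT against no ARID1A with EWS-FLI1 at 1.642 to 4.742 CPM, lost without either repeat of no ARID1A or WT repeat 1 (q up to 0.215).

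The kinase that inhibits eEF2, EEF2K (chr16:22206278-22288738, plus strand), was higher in ΔIDR1b, in which EEF2 RNA was lowest. It read 52.48 and 41.88 CPM in no ARID1A, 50.59 and 59.54 CPM in WT and 76.83 and 73.85 CPM in ΔIDR1b with the empty vector, and 50.29 and 47.27 CPM, 61.57 and 62.61 CPM, and 77.86 and 78.55 CPM with EWS-FLI1. All 4 ΔIDR1b libraries were above the 8 others. ΔIDR1b exceeded no ARID1A by 0.67 (SE 0.12, q = 5.43e-05) and 0.68 (SE 0.12, q = 4.42e-05) in calls that held throughout, and WT by 0.45 (SE 0.12, q = 0.00595) with the empty vector, lost without WT or ΔIDR1b repeat 1 (q up to 0.143). With EWS-FLI1 the difference from WT was 0.33 (q = 0.0502, or 0.0138 with the repeats blocked within each vector). WT against no ARID1A was at 0.35 with EWS-FLI1 (q = 0.0467), lost on leaving out any 1 of 10 libraries, all but the WT libraries with the empty vector (q up to 0.263), and in upper-quartile scaling.

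The 5 methyltransferases that modify lysines of eEF1A and eEF2 are expressed at low levels and gave mixed calls. EEF1AKMT3 was lower in ΔIDR1b, at -0.75 (SE 0.17, q = 6.02e-04) and -0.53 (q = 0.0112) against no ARID1A and at -0.58 (q = 0.00969) against WT with the empty vector. The first held throughout, the second was lost without no-ARID1A repeat 2 or ΔIDR1b repeat 1 (q up to 0.125), and the third without WT repeat 1 or either ΔIDR1b repeat (q up to 0.0957). EEF1AKMT2 was at -0.71 (SE 0.19, q = 0.00432) against no ARID1A with EWS-FLI1, lost without no-ARID1A repeat 1 or ΔIDR1b repeat 2 (q up to 0.179). EEF2KMT, at 4.859 to 12.51 CPM, was higher in ΔIDR1b than in no ARID1A with EWS-FLI1 (1.19, SE 0.24, q = 1.70e-04) in a call that held throughout. It was at 0.63 (SE 0.23, q = 0.0397) against WT with the empty vector, lost without either WT repeat or ΔIDR1b repeat 1 (q up to 0.342) and in DESeq2. EEF1AKMT4, at 1.108 to 4.032 CPM, was higher than in no ARID1A with EWS-FLI1, by 1.5 (SE 0.43, q = 0.00666) in ΔIDR1b and 1.33 (SE 0.44, q = 0.0315) in WT. Both were lost without no-ARID1A repeat 1 (q up to 0.219), and the latter also without no-ARID1A repeat 2 or WT repeat 2. Exons of other genes cover 49.2% of its exonic bases and 31.4% of those of EEF2KMT.

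EWS-FLI1 itself changed no member by this test. The edgeR test called 0 of 66 in no ARID1A, in WT, in ΔIDR1b and in the average of the 3, where 0.0442, 0.221, 0.172 and 0.466% of all genes were called. At an unadjusted p under 0.05 it had 1, 1, 3 and 3 members, and DESeq2 called 0, 1, 0 and 0. The member closest to a call was EIF4A1 in WT, at -0.46 (SE 0.11, q = 0.0999). It was the 1 call of DESeq2, and it was called both in WT and in the average with the repeats blocked within each vector and without WT repeat 1 with EWS-FLI1. EIF5B was the 1 member called in the average without WT repeat 2 with EWS-FLI1. Tests of the difference between ARID1A states in the effect of EWS-FLI1 called 0 members in edgeR and 0 in DESeq2 for each of the 3 pairs of states, with 2, 2 and 2 members at an unadjusted p under 0.05 in edgeR and 0.0245, 0.0196 and 0% of all genes called. A p above the threshold with 2 libraries in a group does not show that members did not differ.

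The genes whose level over the 6 group means ran most closely with EEF1A1, out of 10695 at 10 CPM or more on average, were RPL10 (Pearson r 0.9990), TAF1D (0.9984), CSNK2A1 (0.9982), SBDS (0.9978) and HSP90B1 (0.9976). Those closest to EEF1A2 were WWC2 (0.9987), YRDC (0.9943), TMOD3 (0.9934), VPS25 (0.9924) and ARRDC1-AS1 (0.9922). With 6 points that share libraries and scaling, high values of r are found for many genes, and these names are a description.

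Genes outside the name rule that work with these factors changed in both directions, 46 of 47 listed being tested. In ΔIDR1b against WT 3 were higher and 14 lower in empty-vector cells, against 3 and 8 with EWS-FLI1. Against no ARID1A 12 were higher and 10 lower with each vector, and in WT against no ARID1A 5 and 4, and 12 and 5. In ΔIDR1b against WT, 0 higher and 5 lower of 6 eIF2 phosphatase subunits and scanning regulators, 0 and 3 of 7 termination and recycling factors, 1 and 2 of 9 poly(A)-binding proteins and partners, 2 and 2 of 10 genes of mTOR and MNK signalling, and 0 and 1 of 4 genes for hypusine and selenocysteine made up most of these with the empty vector. Of all genes, 24.5 and 18.6% were called in ΔIDR1b against WT. The shares were 33.3 and 35.9% in ΔIDR1b and 11.7 and 18.1% in WT, both against no ARID1A. The called gene of largest size in each list and comparison is given here. PPP1R15A (GADD34), which directs dephosphorylation of eIF2 alpha, was the lowest: ΔIDR1b was at -1.96 (SE 0.11, q = 1.86e-15) and -1.58 (SE 0.11, q = 2.61e-13) against no ARID1A and at -1.22 and -0.80 (q = 6.18e-10 and 2.60e-06) against WT, and WT was at -0.74 and -0.78 (q = 1.19e-05 and 2.24e-06) against no ARID1A. PABPC1, the cytoplasmic poly(A)-binding protein and itself encoded by a TOP mRNA, was at -0.46 (SE 0.09, q = 1.74e-04) and -0.45 (SE 0.09, q = 3.51e-04) in ΔIDR1b against WT. PDCD4, an inhibitor of eIF4A, was higher in ΔIDR1b than in no ARID1A by 0.75 (SE 0.12, q = 5.80e-06) and 0.79 (SE 0.12, q = 2.62e-06). MKNK2, a kinase of eIF4E, was higher than in no ARID1A by 0.86 and 0.97 in WT (q = 4.39e-06 and 2.99e-07) and by 0.85 and 0.84 in ΔIDR1b (q = 6.81e-07 and 7.54e-07). RPTOR, the scaffold of mTOR complex 1, was higher in ΔIDR1b than in WT by 0.56 and 0.57 (SE 0.12, q = 7.18e-04 and 9.66e-04). The calls of these 5 genes given here held in every alternative run.

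Other genes chosen in the same way lost calls. DHPS, which begins hypusine synthesis, was lower in ΔIDR1b, at -1.08 and -1.50 (SE 0.28, q = 0.00249 and 7.03e-05) against no ARID1A and at -0.86 and -0.83 (q = 0.0209 and 0.0393) against WT. Of these the second held throughout. The first was lost without ΔIDR1b repeat 1 (q = 0.0527), the third without WT repeat 2 or ΔIDR1b repeat 1 (q up to 0.191), and the fourth without repeat 2 of either, in DESeq2 and when the 4 libraries were fitted alone (q up to 0.543). SECISBP2, which binds the selenocysteine signal of mRNAs, was higher in WT than in no ARID1A by 0.41 and 0.53 (SE 0.11, q = 0.0143 and 0.00105), the first lost without any 1 of the 4 libraries compared (q up to 0.119). PELO, which rescues stalled ribosomes, was at -0.76 and -0.96 (SE 0.12, q = 3.53e-06 and 6.24e-08) in ΔIDR1b and at -0.35 and -0.66 (q = 0.0394 and 1.03e-04) in WT against no ARID1A, and at -0.41 (q = 0.00845) in ΔIDR1b against WT with the empty vector. The value of -0.35 lost its call in 9 alternatives (q up to 0.218), among them those without any 1 of the 4 libraries compared, and that of -0.41 without WT repeat 1 or either ΔIDR1b repeat (q up to 0.0814). HBS1L, the partner of PELO, was at -0.39 (SE 0.11, q = 0.00838) in ΔIDR1b against WT with EWS-FLI1, lost without repeat 1 of either and when the 4 libraries were fitted alone (q up to 0.154). PABPC1L, a relative of PABPC1, was at -0.49 (SE 0.11, q = 0.00171) in WT against no ARID1A with EWS-FLI1, lost without no-ARID1A repeat 2 (q = 0.116).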

How the data were processed

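PolyA RNA of 12 libraries was measured, 2 in each of 6 groups. Per the file headers, the authors counted fragments per gene name with featureCounts 2.0.1 on GENCODE release 41 exons (GRCh38, patch 13), requiring both ends to align, using no strand option and dropping fragments with several positions or several genes. The deposited values are whole counts with no normalization. Per the submitters' processing notes STAR, SAMtools and edgeR were used too; their versions are not given in the sources used here. Of 60645 gene names, 20377 passed filterByExpr (minimum count 10, total 15) and hold 99.79 to 99.87% of each library. Counts were scaled by TMM, and a quasi-likelihood model with 1 mean for each of 6 groups was fitted over the 12 libraries in edgeR 4.0.16 (R 4.3.3, limma 3.58.1). Each of 13 contrasts was tested 2-sided with Benjamini-Hochberg adjustment over all genes, and q in the text is this adjusted p. The common biological coefficient of variation was 10.1%. Standard errors (SE) are the log2 fold change over the square root of F. Intervals and floors cover counting error only. A run on simulated data with 200 changed genes checked the steps.

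The labels number repeats 1 and 2 without saying what equal numbers share. Differences between repeats correlated over 10695 genes between groups with the same vector (r 0.104 to 0.194 for the empty vector, 0.153 to 0.412 for EWS-FLI1) and not across vectors (-0.223 to -0.00785), so pairing was taken, from the values, within each vector. The main model has no block, and the value of the replicate block within each vector is printed where it changes the call of a value given.

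Members and lists were chosen with earlier results of these data known. Given in every library are 14 members (EEF1A1, EEF1A2, EEF2, EEF1B2, EEF1D, EEF1G, EIF4A1, EIF4A2, EIF5A, EIF5A2, EIF4E, EIF4EBP1, EIF4G1 and EIF2S3), and in each comparison up to 6 called members each way with the largest change, a mean of at least 1 CPM and no overlap between groups. For genes outside the name rule the called gene of largest size in each list was named. SNHG1, GAS5, SENP3, SENP3-EIF4A1 and the ARID1A and FLI1 checks stand outside this rule, and the first 4 were chosen after their values were seen. Alternatives were DESeq2 size factors, upper-quartile factors, the DESeq2 1.42.0 test, no low-count filter, replicate blocks, removal of trends with exonic length, the 4 libraries compared alone, and leaving out each library. Chosen after seeing the data were removal of GC and length trends (GC from GENCODE 29 transcripts, matched for 91.5% of genes) and leaving out members with shared exons. RefSeq promoters were matched by symbol. The result of 1 marker list is not reported here.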

Additional observations from a re-analysis of the deposited data

How the results depend on the processing

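The counts of called members kept within 1.5 times their main value under DESeq2 size factors, without a low-count filter, and with a plain replicate block in all 13 comparisons. For WT against no ARID1A with the empty vector (9 calls) upper-quartile factors gave 5, the replicate block within each vector 15, the block with the length trend removed 17, GC and length trends removed 19, and the latter with the block 22. Fitting only the libraries compared gave 7 calls for WT against no ARID1A (18) and 5 for ΔIDR1b against WT (23), both with EWS-FLI1. For the last, the block with GC and length trends removed gave 35. For EWS-FLI1 in WT (0 calls), the DESeq2 test, the block within each vector, the block with the length trend, GC and length trends, and these with the block each gave 1. In ΔIDR1b the block with GC and length trends gave 1. In the average over states the block gave 1, the block with the length trend 1, and GC and length trends 2, with or without the block.

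Leaving out a library gave 2 to 15 calls for WT against no ARID1A, 18 to 41 for ΔIDR1b against no ARID1A and 22 to 39 for ΔIDR1b against WT, all in empty-vector cells. With EWS-FLI1 the ranges were 6 to 17, 21 to 33 and 9 to 27. EWS-FLI1 in WT and on average gave 0 to 1, and 0 to 0 in no ARID1A, in ΔIDR1b and in the 3 interactions. The difference between elongation and initiation medians ran from -0.03 to 0.03, -0.14 to -0.02 and -0.13 to -0.06 with the empty vector, and -0.11 to 0.09, -0.18 to -0.08 and -0.09 to -0.03 with EWS-FLI1, in the same order.

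That difference, in ΔIDR1b against no ARID1A, moved with GC and length trends removed to 0.0902 with the empty vector, and to 0.0925 with the block. With EWS-FLI1 it moved to 0.0043 without the length trend (0.0016 with the block), to 0.0510 without GC and length trends (0.0525 with the block), and to -0.0107 with EIF5A and EIF5A2 as elongation factors. Fold changes of all genes correlated with exonic length across genes (Spearman rho 0.146 to 0.245 over the 6 comparisons of states). EIF4EBP1 in ΔIDR1b against no ARID1A with EWS-FLI1 turned to 0.13 without the length trend, 0.12 with the block as well, 0.0576 without GC and length trends and 0.0578 with the block as well; the cause was not tested. Split by direction, upper-quartile factors gave 4 higher and 1 lower, and 10 and 4, for WT against no ARID1A with the empty vector and EWS-FLI1. Of 146 called values of genes chosen by the naming rule, 72 kept their call in every alternative. The fit of only the libraries compared lost 23, the length trend 15 and reversed 1, upper-quartile factors 9, the DESeq2 test 5 and the block within each vector 0. Removal of GC from a genome was not run, since no genome was used here. With 2 libraries in a group, small changes are beyond reach, and the depth leaves members near 0.2 CPM undetectable.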

Other observations

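Of the 144 pseudogene names, 31 passed the filter. In ΔIDR1b against no ARID1A 1 was called higher and 3 lower in empty-vector cells, while 0 and 5 were in EWS-FLI1 cells. In WT against no ARID1A the numbers were 1 and 0, and 0 and 2, and in ΔIDR1b against WT 0 and 0 with both vectors (edgeR quasi-likelihood test). Of all genes, 33.3 and 35.9% were called in the first comparison and 11.7 and 18.1% in the second. In the third 24.5 and 18.6% were. Fragments of processed pseudogenes can come from their parent mRNAs, EEF1A1 among them, so these counts are uncertain.

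Mitochondria use their own factors, of which 10 were tested. TUFM, the mitochondrial counterpart of eEF1A, was lower in ΔIDR1b than in WT with the empty vector (-0.52, SE 0.10, adjusted p = 1.86e-04) and higher in WT than in no ARID1A (0.36, SE 0.10, adjusted p = 0.0122, lost without either repeat of no ARID1A or WT repeat 1, adjusted p up to 0.278). MTFMT, which formylates the mitochondrial initiator tRNA, was higher in ΔIDR1b than in no ARID1A with EWS-FLI1 (0.69, SE 0.18, adjusted p = 0.00237, and 0.0505 without no-ARID1A repeat 2). It was at 0.48 (SE 0.17, adjusted p = 0.0467) in ΔIDR1b against WT with EWS-FLI1, a call lost in 18 alternatives (adjusted p up to 0.166), among them leaving out any 1 of the 12 libraries. GFM2, which recycles mitochondrial ribosomes, was higher in WT than in no ARID1A with EWS-FLI1 (0.37, SE 0.11, adjusted p = 0.0188), lost without either repeat of no ARID1A or WT repeat 1 and when the 4 libraries were fitted alone (adjusted p up to 0.153). MTRF1L, a mitochondrial release factor, was lower in ΔIDR1b than in no ARID1A with the empty vector (-0.61, SE 0.18, adjusted p = 0.00906), lost without repeat 2 of either (adjusted p up to 0.186).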
